A study of Nothobranchius furzeri with 9 samples.

Results

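The genes described here encode the subunits of the proteasome and its dedicated assembly factors and regulators, in bulk liver RNA of the African turquoise killifish (Nothobranchius furzeri), a short-lived annual fish. They were taken by name, as every gene whose symbol begins with PSMA, PSMB, PSMC, PSMD, PSMF or PSMG and a number. The inducible catalytic subunits of the immunoproteasome were left out, which removed PSMB10 and psmb8a. The rule found 43 of the 25475 genes in the deposited table. All libraries came from livers of male fish of the wild-type GRZ strain, an inbred laboratory strain, with no treatment other than age. Young fish were 6 weeks old, adult fish 12 weeks and old fish 23 to 24 weeks, with 3 libraries at each age. The labels number the libraries within an age without saying that each came from a different fish, so p-values measure the spread between these libraries. Counts are given as CPM, that is, relative to library size after TMM scaling between libraries, and levels of different genes are compared only in TPM, which is divided by gene length.

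The proteasome breaks down proteins that carry ubiquitin chains. Its 20S core is a barrel of stacked rings, in which outer rings of alpha subunits gate the entrance and inner rings of beta subunits hold the proteolytic sites. A 19S cap sits on the end of the barrel: its base holds a ring of ATPases that unfold the substrate, and its lid holds the enzyme that removes ubiquitin. In liver, a tissue with heavy protein turnover, the proteasome and autophagy share the removal of proteins. The subunits are stoichiometric, so their genes are often regulated together, in mammals through the transcription factor NFE2L1.

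By role, the 43 genes comprised 9 of the alpha ring, 8 of the beta ring, 6 base ATPases, 4 other base subunits, 9 lid subunits and 7 assembly factors and regulators. The core then has 17 genes and the cap 19. A filter on low counts left 42 for testing. The remaining gene, psmb11b, had no count in any library, which allows up to 3 counts in each, between 0.0662 and 0.168 CPM. The rule found no gene named psmb5, psma7 or psmg4.

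Total estimated counts ran from 19600325 to 33951438 per library, and 15713 to 17372 genes had a count. The share of counts on annotated ribosomal RNA genes was 29.65% in young replicate 1 and 4.52% and 4.74% in the other young libraries. Adult livers had 2.22% to 2.51%, with 7.07%, 15% and 21.98% among the old libraries. Most of this share lay on mitochondrial ribosomal RNA genes. These held 27.58% of counts in young replicate 1 and 19.2%, 13.17% and 6.17% in old replicates 1, 2 and 3. Young replicate 1 stood apart. Its log2 CPM over all tested genes correlated with the other young libraries at r = 0.753 and 0.808, against 0.904 between those. With old replicates 1, 2 and 3 young replicate 1 correlated at r = 0.795, 0.820 and 0.819. Hepatocyte markers summed to 157192 to 328942 CPM over 13 genes, of which FABP1 had only 0.0507 to 7.98 CPM. From young to adult 11 of the 13 were higher, at a median log2 fold change of 0.86, and from adult to old 10 were lower, at -0.42. Markers of exocrine pancreas, 9 of 10 of them detected well enough to test, summed to 5739 to 71527 CPM in adult libraries, 342.7 to 1936 CPM in young and 470.6 to 926.8 CPM in old. Their part in the results below, and that of the ribosomal RNA share, was not tested beyond the values given beside them. In bulk liver, fewer cells of a type and less RNA per cell cannot be told apart.

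Positions are those of the deposited table, whose genome build is not given in the sources used here. There, 34 of the 43 genes lay on 17 numbered chromosomes and 9 on scaffolds without a chromosome number. Among the genes described most fully, psmd13 lies on chromosome 7 (51985276 to 51995272), PSMD14 also on 7 (40908462 to 40911988), PSMD2 on 6 (47471476 to 47489664), PSMA2 on 5 (41132677 to 41148128) and psmd5 on 2 (62387024 to 62396006), while PSMB3 and PSMB6 lie on scaffolds. The model named PSMB11 lies on chromosome 9, from 49495832 to 49504466, beside prmt5, ap1g2 and NEDD8. PSMB11 is known in mammals as a catalytic subunit of the thymus. In the RefSeq annotation of the NfurGRZ-RIMD1 assembly, psmb5 and psmb11a are neighbours and are followed by prmt5, so which of them this row counts cannot be told from its name. The row named PSMD10 (chromosome 10, 9679326 to 9716752) carries the description of acyl-CoA synthetase long chain family member 4, a fatty acid activating enzyme, and the IDs of 2 genes, whose counts cannot be told apart. By these positions, 11 members overlap another gene, 10 of them on the opposite strand. Whether counting used strand is not given in the sources used here, so values of psmd13, PSMD8, psmc2, psmc4, psmd1, PSMD7, PSMA6, PSMB11 and PSMD10 may hold reads of such neighbours. The member that overlaps on the same strand is PSMD4B, which shares 250 bases with znf687a. Values of PSMD4B may hold reads of znf687a even if counting used strand.

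**Figure D1:**
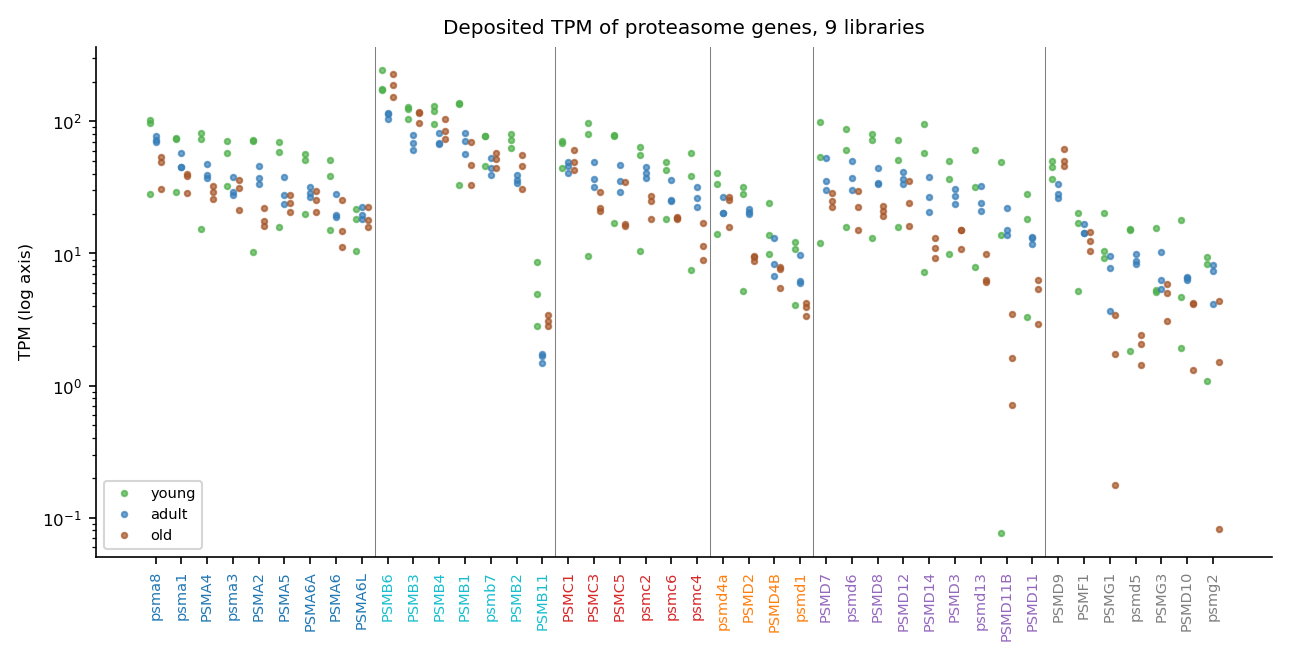
Deposited TPM on a log axis for the 42 tested proteasome genes, grouped by role and ordered by mean level within each role; each point is 1 library, in green for young, blue for adult and brown for old. PSMB6 stands highest, between 103.6 and 244.3 TPM, while PSMB11 and the assembly factors other than PSMD9 mostly lie under 20 TPM.

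On the length-corrected TPM scale, the beta ring held the most abundant members. PSMB6, which carries the caspase-like site, averaged 196.9 ± 41.0 TPM in young, 111 ± 6.48 in adult and 190.4 ± 37.8 in old (SD, n = 3), and was the highest member in every library. The next members by TPM were PSMB3, PSMB4 and PSMB1, structural beta subunits, with means over all libraries of 99.8, 91.9 and 73.7 TPM. The neighbours PSMB3 and PSMB4 did not differ beyond their spread. In the alpha ring psma8 was highest, at 64.6 TPM, and PSMA6L lowest, at 18.5 TPM. In mammals psma8 is a testis form of the alpha 7 subunit. With no gene named psma7 found, psma8 was the only alpha 7 gene among the members.

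On the same TPM scale, the median of the genes' means over all libraries was 28.1 TPM in the cap and 42.6 in the core. By role it was 64.1 in the beta ring, 37.6 in the ATPases, 36.1 in the alpha ring and 31.0 in the lid. The medians of the core (17 genes) and beta ring (8 genes) include psmb11b, at 0 TPM in every library, which lowers them. The ATPases were thus not below the alpha ring. PSMC1 led the ATPases at 52.6 TPM, PSMD7 the lid at 40.0 TPM and psmd4a the other base subunits at 24.9 TPM. The lowest of these groups were psmc4, PSMD11 and psmd1, at 24.6, 11.4 and 6.74 TPM. Among assembly factors and regulators PSMD9 had 41.9 TPM and every other gene 13.9 TPM or less. The core held 69.1% to 72% of the summed TPM of core and cap in the old libraries, 56.2% to 59.7% in the adult and 53.4%, 59.6% and 77.3% in the young, where the highest share was that of young replicate 1. The adult and old shares did not overlap. PSMB6 alone made up 12.6% to 21.4% of the members' summed TPM in old livers and 7.29% to 9.23% in adult livers. In young replicates 1, 2 and 3 that share was 22.8%, 6.78% and 7.66%.

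**Figure D2:**
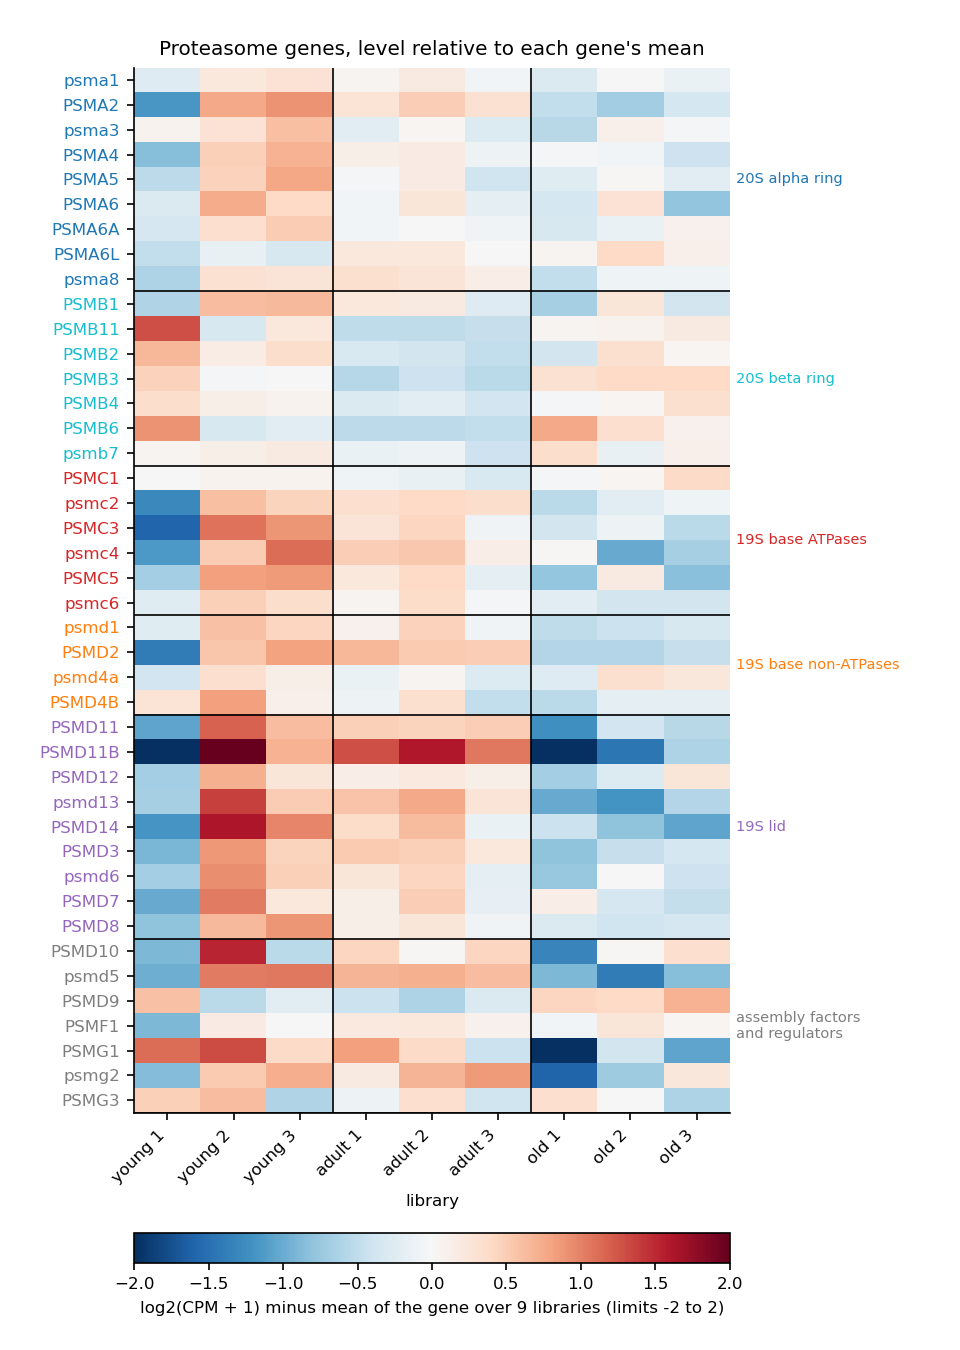
Level of the 42 tested proteasome genes in each of the 9 libraries, as log2(CPM + 1) minus the gene's mean over the libraries, blue for lower and red for higher, with colours cut at -2 and 2. Most lid and base genes are blue in young replicate 1 and in the old libraries, with PSMC1, psmd4a and PSMD12 among those red in at least 1 old library, while most beta ring genes are red there and blue in the adult libraries.

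No proteasome gene passed the test in any of the 3 comparisons of ages (edgeR's quasi-likelihood test, Benjamini-Hochberg adjusted p under 0.05 over 13971 genes). Few genes of any kind did: 0.0143% of all genes tested between adult and young, 0.00716% between old and adult and 0.558% between old and young. At an unadjusted p under 0.05 stood 3 of 42 members between adult and young, 10 between old and adult and 7 between old and young, beside 9.76%, 22.6% and 15.1% of all genes tested. The values below are therefore descriptions of levels and differences, each with its error.

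Most proteasome genes were lower in old than in adult liver: 31 of 42 had a negative log2 fold change, against 51.7% of all genes, and the median was -0.37 against -0.05. By role, all 9 lid genes were lower, as were 5 of 6 ATPases, 3 of 4 other base subunits and 7 of 9 alpha subunits, while 6 of 7 beta subunits were higher. Between old and young, 35 of 42 members were lower (53.9% of all genes), with a median of -0.56 against -0.09. Between adult and young, 33 of 42 were lower (53.8% of all genes), with a median of -0.20 against -0.07. The comparisons share libraries, so each is given with its own values. When each library's ribosomal RNA share entered the fit as a covariate, the members' median between old and adult was 0.17, and 26 of 42 were higher. Over all genes in that fit the median was 0.06, and 7406 of 13971 were higher. Every old library had a larger share (7.07% to 21.98%) than every adult one (2.22% to 2.51%). Age and share therefore cannot be told apart between old and adult, here and wherever this covariate is used below. That covariate left the median between old and young at -0.41, with 35 of 42 lower. Over all genes that median was 0.04, with 6723 of 13971 lower. Within an age the share varied most among the young libraries (4.52% to 29.65%). The fit of the covariate therefore leans on young replicate 1.

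**Figure D3:**
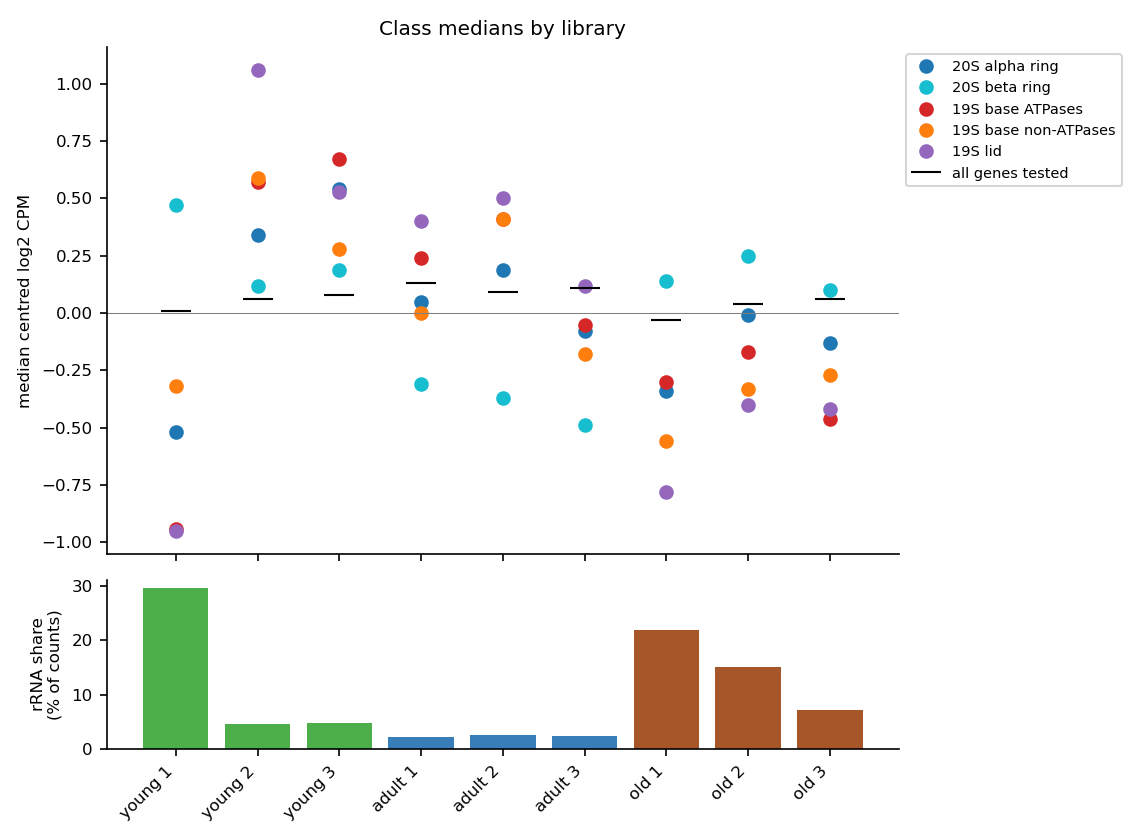
Upper panel, the median over the genes of each role of log2 CPM centred on the gene's mean, for each of the 9 libraries, with all tested genes as black bars; lower panel, the share of counts on ribosomal RNA genes in percent. The lid is at 0.40, 0.50 and 0.12 in adult and -0.78, -0.40 and -0.42 in old libraries, and young replicate 1, with the largest ribosomal RNA share, has the lid at -0.95 and the beta ring at 0.47.

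In the alpha ring, which gates the core, 7 of 9 genes were lower in old than in adult liver. PSMA2 had 7.7, 32.0 and 35.2 CPM in young, 22.6, 26.4 and 23.0 in adult and 12.9, 11 and 14.3 in old libraries. All old libraries lay below all adult ones, and young replicate 1 lay below every other library. The log2 fold change of PSMA2 from adult to old was -0.92 ± 0.48 (SE; adjusted p = 0.284). The other alpha subunit without overlap between those ages was psma8, at -0.46 ± 0.31 (adjusted p = 0.403). Thus 2 of 9 alpha genes were lower without overlap, near the 21.6% of all genes that were. The remaining alpha genes lay between -0.23 and 0.06, and their libraries overlapped. The ring's median was -0.21 between old and adult, -0.41 between old and young and -0.19 between adult and young. Without young replicate 1 the median between old and young was -0.62, beside -0.03 for all genes, with 8 of 9 alpha genes lower. PSMA6L ran against the ring: its 3 young libraries (11.8, 15.2 and 13.4 CPM) lay below all adult (19.7, 19.7 and 16.9) and all old ones (17.7, 22.7 and 18.3). Between young and adult 12% of all genes were higher without overlap, and between young and old 7.69%. From young to old PSMA6L was at 0.54 ± 0.28 (adjusted p = 0.399).

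The beta ring, which holds the proteolytic sites, had its lowest median in the adult libraries. PSMB3, a structural subunit, had 87.5, 61.9 and 62.7 CPM in young, 42.2, 47.4 and 43.2 in adult and 78.0, 83.8 and 83.9 in old libraries. The adult libraries lay below all others, and young replicate 1 was the highest of all. PSMB3 had a log2 fold change of 0.89 ± 0.25 from adult to old (adjusted p = 0.115) and -0.68 ± 0.25 from young to adult (adjusted p = 0.438). PSMB6, one of the catalytic subunits, had 174.8, 74.6 and 79.3 CPM in young, 64.1, 64.7 and 66.0 in adult and 158.1, 117.9 and 98.6 in old libraries. The 3 adult libraries were close to each other and below every other library. From adult to old PSMB6 was at 0.94 ± 0.37 (adjusted p = 0.175). Among old libraries PSMB6 was highest in the one with the largest ribosomal RNA share, and young replicate 1 was higher still.

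The catalytic subunit psmb7, of the trypsin-like site, had 50.3, 52.8 and 55.5 CPM in young, 44.4, 45.4 and 36.1 in adult and 62.1, 43.7 and 52.2 in old libraries. Adult and old libraries of psmb7 overlapped, and the log2 fold change was 0.33 ± 0.26 (adjusted p = 0.467). PSMB4, structural, was 0.42 ± 0.25 higher in old than in adult without overlap (adjusted p = 0.334), and PSMB2 0.42 ± 0.29 with overlap (adjusted p = 0.406). PSMB1 had a negative value, -0.27 ± 0.39, which was 0.28 with the ribosomal RNA covariate. The PSMB11 model had few reads, between 0.854 and 5.51 CPM, and its log2 fold change of 1.06 ± 0.69 from adult to old came without overlap. Old and adult libraries did not overlap in 4 of 7 beta genes, all higher in old, where 19.1% of all genes are higher without overlap. Between adult and young all 7 beta genes were lower, with a median of -0.68, and 6 of them did not overlap, beside 9.68% of all genes lower without overlap. Without young replicate 1 that median was -0.49. The smallest adjusted p among them was that of PSMB2, at 0.417 with a log2 fold change of -0.82 ± 0.29.

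**Figure D4:**
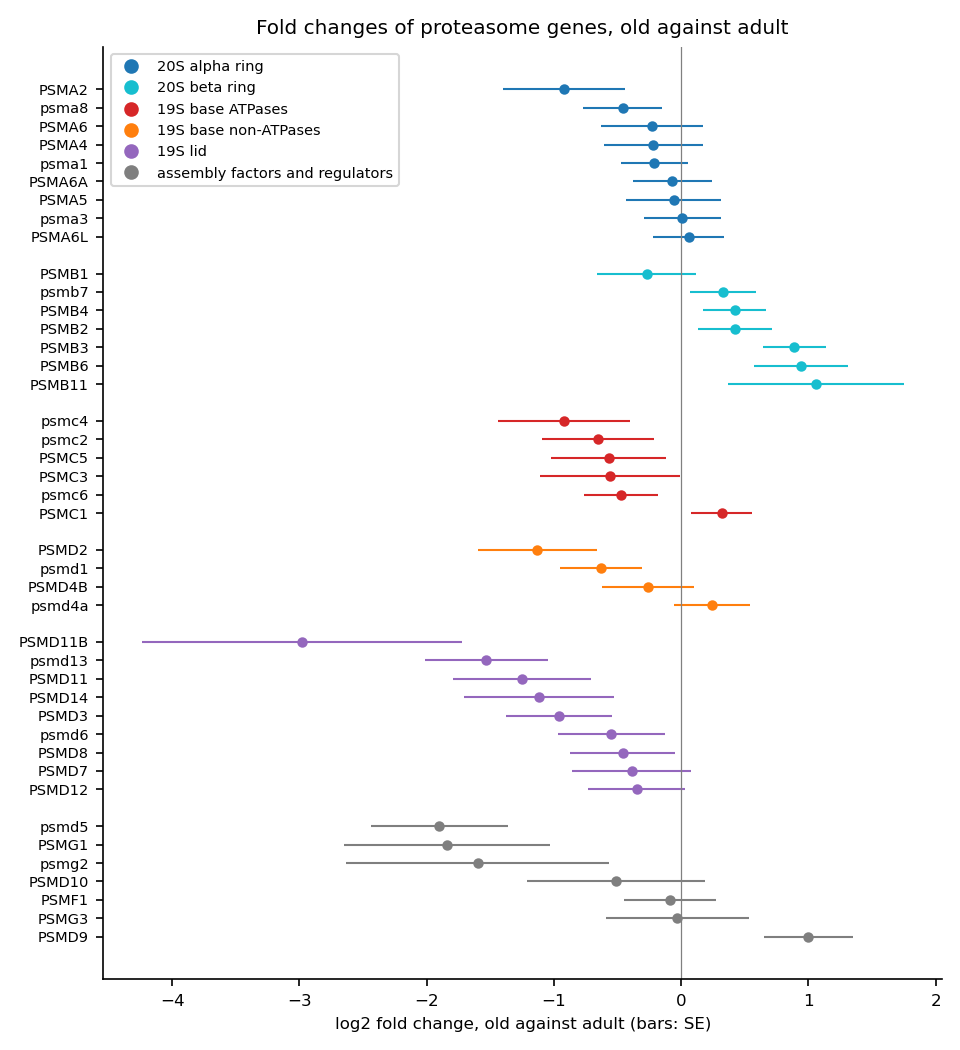
Log2 fold change from adult to old for the 42 tested proteasome genes, coloured and grouped by role, with bars of 1 standard error; values left of 0 are lower in old. All 9 lid genes lie left of 0 and 6 of 7 beta genes right of it, and PSMD11B, at -2.98, has the widest error among the lid genes.

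The base ATPases, which unfold substrates and open the gate of the core, were lower in old than in adult liver in 5 of 6 genes, but 4 of 6 were higher with the ribosomal RNA covariate, at a median of 0.12. psmc4 had 44.1, 45.7 and 34.2 CPM in adult and 31.5, 15 and 19.2 in old libraries, and 13.5, 44.6 and 68.5 in young. Old libraries lay below adult ones, and the young values spanned the whole range. From adult to old psmc4 was at -0.92 ± 0.52 (adjusted p = 0.319). psmc2, psmc6 and PSMC3 were also lower without overlap, by -0.65, -0.47 and -0.56, and PSMC5 was lower with overlap at -0.57. PSMC1 was the exception, with 66.2, 63.4 and 56.7 CPM in adult and 69.3, 72.3 and 91.9 in old libraries, which did not overlap. The difference was 0.32 ± 0.24 (adjusted p = 0.444). Between these ages 4 of 6 ATPases were lower without overlap and 1 higher, beside 21.6% and 19.1% of all genes. From young to old the ATPases had a median log2 fold change of -0.71, with 5 of 6 lower and no gene without overlap, and PSMC5 had the smallest adjusted p, 0.386.

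The other base subunits bind ubiquitin and its carriers. PSMD2, the scaffold on which substrate carriers dock, had 17.1, 68.8 and 82.0 CPM in young, 74.2, 66.9 and 66.0 in adult and 30.5, 30.6 and 33.4 in old libraries. Old libraries were close together and below all adult ones, and young replicate 1 was below them all. Its log2 fold change from adult to old was -1.13 ± 0.47 (adjusted p = 0.199). psmd1, a scaffold of the base and binding site of the ubiquitin receptor ADRM1, was lower by -0.63 ± 0.32 without overlap from adult to old, and by -0.76 ± 0.32 without overlap from young to old (adjusted p = 0.3). The ubiquitin receptor has copies in this genome, psmd4a and PSMD4B. From adult to old psmd4a was 0.24 ± 0.30 and PSMD4B -0.26 ± 0.36, both with overlap. From young to old PSMD4B was lower without overlap, at -0.79 ± 0.36 (adjusted p = 0.344), and psmd4a was at 0.07 ± 0.30 with overlap. In that comparison 2 of these 4 base genes were lower without overlap, beside 7.9% of all genes.

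The lid's 9 genes were all lower in old than in adult liver, at a median log2 fold change of -0.96. With the ribosomal RNA covariate 4 of the 9 were higher and the median was -0.06, beside -0.44 for assembly factors and regulators and 0.34 for the beta ring. psmd13, a structural lid subunit, had 13.1, 56.9 and 30.8 CPM in young, 32.2, 37.1 and 25.8 in adult and 10.1, 8.83 and 13.9 in old libraries. Old libraries were below all adult ones, and young replicate 1 lay within the old range. The log2 fold change was -1.53 ± 0.48 from adult to old (adjusted p = 0.126) and -1.62 ± 0.48 from young to old (adjusted p = 0.152). PSMD14, the deubiquitinase of the lid, had 9.11, 69.9 and 44.2 CPM in young, 28.8, 34.8 and 20 in adult and 16.1, 12.2 and 10.1 in old libraries. Its old libraries lay below all adult ones, and young replicate 1 below all old ones. PSMD14 was at -1.12 ± 0.59 from adult to old (adjusted p = 0.285) and -1.68 ± 0.60 from young to old (adjusted p = 0.227).

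PSMD3, a structural lid subunit, was -0.96 ± 0.42 from adult to old (adjusted p = 0.21), with 53.8, 51.8 and 43.2 CPM against 20.8, 26.6 and 28.9. PSMD8, PSMD11 and PSMD11B were the other lid genes whose old libraries lay below all adult ones. psmd6, PSMD7 (the partner of the deubiquitinase) and PSMD12 were lower at -0.55, -0.39 and -0.35, with overlap. From adult to old 6 of 9 lid genes were lower without overlap, and over the cap 12 of 19, beside 21.6% of all genes. From young to old the lid median was -0.85 and no lid gene was without overlap (7.9% of all genes were lower without overlap): in each, young replicate 1 lay within or below the old range. Between adult and young the lid median was -0.09, and without young replicate 1 it was -0.49, with 9 of 9 genes lower.

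**Figure D5:**
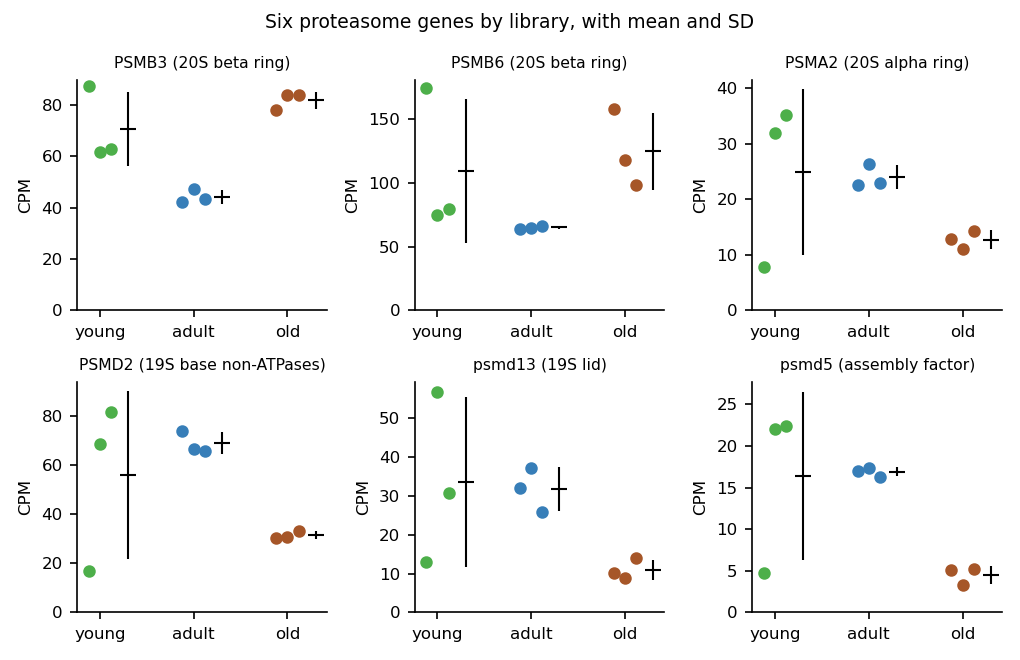
CPM of 6 proteasome genes in each library, in green for young, blue for adult and brown for old, with the mean and SD of each age as a bar beside the points; every axis starts at 0. PSMB3 and PSMB6 have their lowest values in the 3 adult libraries, PSMA2, PSMD2, psmd13 and psmd5 are lower in old than in adult, and young replicate 1 is the low young point in those 4 genes.

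Of the assembly factors and regulators 6 of 7 were lower in old than in adult liver, with a median of -0.51. psmd5, a chaperone that holds the base during assembly, had 4.69, 22 and 22.4 CPM in young, 17, 17.4 and 16.3 in adult and 5.05, 3.25 and 5.24 in old libraries. Old libraries lay far below adult ones, and young replicate 1 lay among the old. Its log2 fold change was -1.90 ± 0.54 from adult to old (adjusted p = 0.115) and -1.86 ± 0.54 from young to old (adjusted p = 0.145). PSMD9, another base chaperone, ran the other way, with 31.7, 14.1 and 17.7 CPM in young, 15.2, 13.2 and 16.8 in adult and 28.3, 27.8 and 34.3 in old libraries. Old libraries lay above all adult ones, with a log2 fold change of 1.00 ± 0.35 (adjusted p = 0.144), and young replicate 1 lay within the old range.

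PSMG1, which with psmg2 assembles the alpha ring, had 10.2, 11.8 and 5.72 CPM in young, 8.17, 5.75 and 2.85 in adult and 0.168, 2.99 and 1.48 in old libraries. Every old library lay below every young one, at a log2 fold change of -2.57 ± 0.83 (adjusted p = 0.181), and old and adult libraries overlapped at -1.84 ± 0.81 (adjusted p = 0.214). Its partner psmg2 was at -1.60 ± 1.03 from adult to old, from a low level of 0.0561 to 4.81 CPM over all libraries. PSMG3, another alpha ring chaperone, was at -0.03 ± 0.56 and PSMF1, an inhibitor of the core in vitro, at -0.09 ± 0.36. The PSMD10 row, which holds a second gene, was at -0.51 ± 0.70.

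Core and cap differed in their old to adult values. The core median was -0.03, with 8 of 16 genes lower, and the cap median -0.57, with 17 of 19 lower, a difference of 0.54 on the log2 scale. Centred on each gene's mean, the core median minus the cap median was 0.28, 0.45 and 0.38 in old livers and -0.31, -0.34 and -0.21 in adult livers, so that these ages did not overlap. Young libraries had 0.56, -0.58 and -0.11, and replicate 1 had the highest value of all 9. The covariate for ribosomal RNA gave a difference of 0.37, with core at 0.31 and cap at -0.06. Within the core, 7 of 9 alpha genes were lower and 6 of 7 beta genes higher, but under that covariate 7 of 9 alpha genes were higher (median 0.17), as were all 7 beta genes (0.34) and 9 of 19 cap genes. From young to old, core and cap medians were -0.37 and -0.79.

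Core genes are shorter than cap genes, with a median gene length of 976 against 1422 bases, and over all genes those of 66 to 1154 bases had a median log2 fold change of 0.16 from adult to old and those of 1155 to 1793 bases -0.18. Within 900 to 1500 bases, 13 core genes had a median of -0.06, 14 cap genes -0.51 and all 3414 genes -0.05. Of these core genes all but PSMA6, psma1 and PSMB6 had 1154 bases or fewer. Of these cap genes all but PSMD14 and PSMD8 had more. The window therefore does not match core and cap in length, and the part of length in their difference was not tested. Across the 9 libraries most cap genes varied together in log2 CPM, with a median Pearson r of 0.79 over 171 pairs and 0.85 over the 36 pairs of lid genes. Of the cap pairs 15 were below 0, the lowest at -0.34. The alpha ring had a median r of 0.74 within itself and 0.74 with the lid. Beta genes without PSMB11 had 0.51 among themselves, -0.20 with the alpha ring and -0.33 with the lid. Their 54 pairs with lid genes ran from -0.95 to 0.95, and 42 were below 0. These are descriptions, since all pairs share the same libraries, their ages, depths and ribosomal RNA shares.

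Several subunits had more than 1 gene, and the copies did not keep equal shares of TPM. PSMD11 and PSMD11B encode the lid subunit that clamps the cap to the alpha ring. PSMD11B had 0.109, 43.8 and 12.6 CPM in young, 19.5, 24.4 and 16.5 in adult and 1.01, 2.08 and 4.5 in old libraries, and PSMD11 had 5.29, 28.8 and 19, then 17.2, 16.9 and 17.5, then 4.6, 9.08 and 7.93. Old libraries of both lay below all adult ones, at log2 fold changes of -2.98 ± 1.26 for PSMD11B (adjusted p = 0.201) and -1.25 ± 0.54 for PSMD11 (adjusted p = 0.208). PSMD11B made up 51.8% to 62.4% of the pair's TPM in adult livers and 19.7% to 39.2% in old livers. In young replicates 1, 2 and 3 it made up 2.24%, 63.5% and 43%, a range that covers both other ages. PSMD4B made up 22.8% to 25.6% of the receptor pair's TPM in old livers and 25.1% to 32.6% in adult livers, which overlap. Of the alpha 6 copies PSMA6, PSMA6A and PSMA6L, the last made up 16.1% to 23.1% in young and 27% to 31.3% in adult and old livers. How the authors' counting shared reads between copies is not given in the sources used here.

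Without young replicate 1, the library that stood apart, members passed the test. That library correlated more with old replicates 2 and 3 than with any other library of its own age. Between old and adult 11 of 42 did, which is 26.2% of the members beside 12% of all genes. The 8 that fell were psmd5, PSMD11, PSMA2, PSMD2, PSMD14, psmd13, PSMD11B and PSMD3, of which 5 are lid genes, beside 5.74% of all genes. The 3 that rose were PSMD9, PSMB3 and PSMB6, beside 6.29% of all genes. The fold changes hardly moved, since young libraries do not enter this contrast except through the spread. The smallest adjusted p was that of psmd5, 0.00999 at -1.90 ± 0.28, followed by PSMD2, 0.0126 at -1.13 ± 0.19.

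Between old and young without that library, 11 of 42 members passed, beside 9.78% of all genes, and all of them fell, as 5.05% of all genes did: psmd5, PSMD11, PSMA2, psmc4, PSMD8, PSMD2, PSMD14, PSMC3, psmd13, PSMD11B and PSMD3. PSMD14 fell by 2.16 ± 0.34 on the log2 scale (adjusted p = 0.0125) and psmd13 by 2.00 ± 0.34 (adjusted p = 0.0157). No beta gene was among them. Without that library the young shares of ribosomal RNA counts were 4.52% and 4.74%, below every old one (7.07% to 21.98%). Age and share therefore cannot be told apart in this contrast either. Between adult and young none passed, beside 0.0429% of all genes, and 40 of 42 were lower with a median of -0.47. Leaving out old replicate 1 as well, the old library with the largest ribosomal RNA share, 6 members passed between old and adult (7.2% of all genes): psmd5, psmc4, PSMD2 and PSMD11B fell, and PSMD9 and PSMB3 rose. The same 11 members passed between old and young (7.39% of all genes). A fit on the adult and old libraries alone called 10 members (11.4% of all genes), and DESeq2 on all 9 libraries called psmd5, psmd13 and PSMB3 between old and adult (13%) and psmd5, psmd13 and PSMG1 between old and young (7.56%), and none between adult and young (2.76%). Fitted with the ribosomal RNA covariate, no member was called between old and adult (0.0573% of all genes) and psmd13 alone between old and young (5.08%).

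Genes around the proteasome were taken from lists chosen with earlier results known. Of 16 tested cap subunits, assembly factors and activators outside the naming rule, none passed the test in any comparison, and 8 were higher and 8 lower in old than in adult. usp14, a deubiquitinase of the base, had 19.5, 24.8 and 16.0 CPM in adult and 2.19, 8.47 and 5.84 in old libraries, at -1.86 ± 0.72 (adjusted p = 0.175, and 0.0402 without young replicate 1). PSME4, an alternative activator of the core, had 33.8, 26.9 and 14.7 CPM in young, 72.8, 58.1 and 132.5 in adult and 135.8, 110.3 and 65.6 in old libraries, with a log2 fold change of 2.05 ± 0.45 from young to old (adjusted p = 0.0782), and it rose without young replicate 1, at 2.32 ± 0.49 (adjusted p = 0.0253). The maturation factor of the core, pomp, was at 0.29 ± 0.25 from adult to old.

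Of the inducible subunits that the naming rule left out, PSMB10 passed the test. It had 4.86, 5.85 and 6.14 CPM in young, 11.8, 14.8 and 12.5 in adult and 17.7, 28.3 and 19.4 in old libraries. The ages did not overlap, and from young to old it rose by a log2 fold change of 1.95 ± 0.33 (adjusted p = 0.0342). That call was lost in 10 of 20 alternatives, with log2 fold changes of 1.66 to 2.08. psmb8a, another one, was at 1.57 ± 0.51 (adjusted p = 0.185). The T cell kinase lck moved with them, at 0.0351 to 0.353 CPM in young, 0.99 to 1.48 in adult and 11.6 to 17.7 in old livers, with a log2 fold change of 6.4 ± 0.80 (adjusted p = 0.0125), and zap70 had at most 0.719 CPM in any library. The 7 macrophage markers summed to 2.729 to 15.12 CPM in young, 37.18 to 83.22 in adult and 25.79 to 66.07 in old livers. From young to old 6 of these 7 were higher, at a median log2 fold change of 1.46. The part of T cells or macrophages in the PSMB10 result was not tested.

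Of 14 ubiquitin and shuttle genes none passed in any comparison, and 10 were lower in old than in adult. VCP, the ATPase that extracts ubiquitinated proteins, had 44.4, 313.8 and 340.9 CPM in young, 278.1, 290.2 and 245.2 in adult and 50.2, 69.1 and 115.1 in old libraries, at -1.79 ± 0.63 from adult to old (adjusted p = 0.145). The ubiquitin-activating enzyme uba1 was at -1.85 ± 0.53 (adjusted p = 0.115). The autophagy receptor sqstm1 was higher, from 41.7, 27.9 and 59.0 CPM to 269.6, 183.5 and 117.5, at 2.15 ± 0.46 (adjusted p = 0.0873), and rps27a, a ubiquitin and ribosomal protein fusion gene, stood at 1.72 ± 0.54 (adjusted p = 0.126). Without young replicate 1, VCP and uba1 fell between old and adult (adjusted p = 0.0128 and 0.00999) and sqstm1 and rps27a rose (adjusted p = 0.0133 and 0.0149). In that fit 3 of the 14 passed as higher and 2 as lower, beside 6.29% and 5.74% of all genes. Of 11 transcriptional regulators none passed. NFE2L1 was at -1.55 ± 0.91 from adult to old (adjusted p = 0.335), from 5.82, 8.86 and 5.77 CPM to 3.99, 1.47 and 1.53.

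The mean log2 CPM of the 42 members was 3.95, 5.12 and 4.90 in young, 4.64, 4.75 and 4.45 in adult and 3.92, 4.27 and 4.26 in old libraries. The genes whose profile over the 9 libraries was most like it were CNN2, an actin-binding calponin (r = 0.992), KDELR2A, a retrieval receptor of the endoplasmic reticulum (0.988), and PFKFB4, a regulator of glycolysis (0.987). All are low in young replicate 1 and in the old libraries: CNN2 had 32.4, 133.7 and 85.8 CPM in young, 71.4, 78.4 and 51.4 in adult and 26.9, 41.7 and 43.7 in old libraries. With 9 points that share age and library, these correlations are descriptions.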

How the data were processed

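Per the labels' protocols, liver RNA purified with TRIzol, DNase I and RNeasy kits was made into libraries by the SMART-Seq mRNA method. DRAGEN appears in the submitters' processing notes, with neither version nor role. The genome build is not given in the sources used here. Per the file headers, the deposited table gives each of 25475 genes an estimated count that the authors did not scale between libraries, and a TPM value that the authors scaled by gene length and library. Estimated counts were rounded. Genes passing filterByExpr (13971) entered edgeR 4.0.16 (R 4.3.3), with TMM scaling, a robust quasi-likelihood fit with 1 mean per age over all 9 libraries, and Benjamini-Hochberg adjustment over all genes, calling an adjusted p under 0.05. The standard error is the fold change's size over the square root of F. The model's common coefficient of variation was 0.61, which limits precision. CPM is TMM-scaled; log2 CPM used a prior count of 2. TPM served for levels only. The script was tested on simulated data. The members and lists were chosen with earlier results of these data known. Named genes are, by role and comparison, those with the smallest p, plus catalytic, deubiquitinase, receptor and copied subunits, the TPM extremes and the leading genes of each list; others were chosen after their values were seen. Alternatives covered scaling, filtering, DESeq2 1.42.0, limma-voom (limma 3.58.1), the 2 ages only, a replicate block, the ribosomal RNA share, removal of ribosomal and mitochondrial genes, TPM and each library left out.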

Additional observations from a re-analysis of the deposited data

How the results depend on the processing

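The direction of the core and cap difference held in every alternative run, but between adult and young the medians were nearly equal in some. There core and cap stood at -0.49 and -0.47 without young replicate 1. With the ribosomal RNA covariate they stood at -0.51 and -0.49. Values that moved were as follows. Genes changed between adult and young (2) became 13 without a filter on low counts, 386 with DESeq2, 9 with limma-voom and 0 with the 2 ages only, the replicate block, the ribosomal RNA covariate or without young replicate 1 and old replicate 1, an alternative chosen after seeing the data. Those between old and adult (1) became 74, 1811 and, with the 2 ages only, 1599, then 0 with the block, 8 with the covariate and 1006 without those libraries. Those between old and young (78) became 131, 1056, 7, 45, 710 and 1033 in the same order of settings. Members called between old and adult (0) became 3 with DESeq2, 10 with the 2 ages only and 6 without those libraries, and between old and young (0) 3 with DESeq2, 1 with the covariate and 11 without those libraries. The members' median between old and adult (-0.37) became 0.17 with the covariate and -0.59 in TPM, and core minus cap (0.54) 0.37 and 0.63.

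With 1 library left out, the ranges, for adult versus young, old versus adult and old versus young in turn, were 0 to 12, 0 to 1681 and 2 to 1366 genes changed, and 0 to 0, 0 to 11 and 0 to 11 members called. Member medians ran from -0.47 to 0.01, -0.45 to -0.25 and -0.83 to -0.39, and core minus cap from -0.38 to -0.02, 0.51 to 0.64 and 0.25 to 0.69. The highest counts between old and adult and between old and young came without young replicate 1. limma-voom called 0 members in each comparison.

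Between old and adult the covariate turned 15 of 42 members from lower to higher: PSMA4 (0.33), PSMA5 (0.42), PSMA6 (0.09), PSMA6A (0.30), psma1 (0.02), PSMB1 (0.28), PSMC3 (0.55), PSMC5 (0.08), psmc2 (0.16), PSMD7 (0.23), PSMD8 (0.19), PSMD12 (0.23), psmd6 (0.07), PSMD10 (0.40) and PSMF1 (0.37). The sign also turned for NFE2L1 (0.05) with the covariate, and for PSMA6A without young replicate 1 and old replicate 1 (0.03). Among members that kept their sign, PSMD11B was at -0.06 with the covariate and at -2.98 in the main fit. PSMD14 was at -0.09 (main fit -1.12), PSMA2 at -0.04 (-0.92), PSMD2 at -0.24 (-1.13) and PSMB6 at 0.34 (0.94). Larger values remained for psmd5 at -0.99 (-1.90), psmd13 at -0.78 (-1.53) and PSMB3 at 0.72 (0.89). With 1 library left out, old versus adult ran from -0.60 to 0.00 for PSMA6, -0.19 to 0.03 for PSMA6A and -0.06 to 0.13 for PSMA6L. Adult versus young ran from -1.03 to 0.06 for PSMD14, turning without young replicate 2, and from -0.13 to 0.68 for PSMD2, turning without young replicate 1. PSMD2 also turned with library size only (-0.10), the covariate (-0.16) and without young replicate 1 and old replicate 1 (-0.13). The cause was not tested. Library size only moved the median of all genes to -0.36 between adult and young and between old and young, and members were then lower in 39 of 42 in both.

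Same-numbered libraries of different ages deviated together from their age means at r of -0.05 to 0.21, and differently numbered ones at -0.21 to 0.15. These ranges overlap, and they cannot settle whether the replicate numbers pair the libraries. With the replicate block, member medians were -0.12, -0.38 and -0.49 and no member was called. Depth limits psmb11b and the low assembly factors.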
